A study of Mus musculus with 24 samples.

Results

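The genes described are 7 that steer lymphocytes out of the thymus and towards other tissues: Klf2, Foxo1, S1pr1, Ccr7, Gpr183, Cd69 and Itgb7. All non-control probes carrying one of these gene names on the array were taken, which gave 8 of 55681 probes (7 of 34844 gene names), since Foxo1 has 2 and every other gene has 1. The series measured RNA of 24 sorted mouse cell samples, each on 1 single-colour Agilent array, and its title asks how parts of the niche act on blood progenitors. Cells were sorted by flow cytometry and lysed directly, and their messenger RNA was copied and amplified by PCR before Cy3 labelling, per the labels' protocols.

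The samples fall into 8 groups. From a thymus heterozygous for Foxn1, the transcription factor that thymic epithelium needs, came 4 groups of thymocytes, here called wt as in the titles. These are DN3, an early stage without CD4 or CD8 (n = 3), DP, with both (n = 3), and the CD4 single-positive SP4 (n = 3) and CD8 single-positive SP8 (n = 3), the most mature. From a transgenic thymus deficient in Foxn1, here called tg, came DP thymocytes (n = 4) and B cells without surface IgM (n = 2). Neither the transgene nor its promoter is named in the labels given here. From wild-type fetal liver came B cells without (n = 3) and with (n = 3) surface IgM, for which the labels give no Foxn1 genotype. The labels give no ages. For SP4 the cell type label lists SP8 cells as well, and the title decided the group. Nothing in the labels says that replicates are separate animals, so p-values measure only how far these samples differ among themselves, which may be technical. Some titles share a number (3 and 3A in wt DP, and 6, 6A and 6B in tg DP) and may be repeats of 1 sample.

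As background, Foxo1 is a forkhead transcription factor that promotes expression of Klf2, a zinc-finger factor, and Klf2 in turn drives S1pr1. S1pr1 is the receptor for sphingosine 1-phosphate, a lipid that is abundant in blood and draws mature thymocytes out of the thymus. Cd69, an early activation protein, binds S1pr1 and takes it off the cell surface. Ccr7 is the chemokine receptor that guides thymocytes to the medulla and T cells to lymph nodes. Gpr183 is an oxysterol receptor that positions B cells in follicles, and Itgb7 is an integrin chain that pairs with an alpha chain to bring lymphocytes to the gut.

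The probes are shown because each gene but one is known here only through a single oligonucleotide of 60 bases. The first 30 bases of each are printed 5′ to 3′, as the spot files give them, in lower case.
Klf2: tgtatataagactatgaccgattgtatttc
S1pr1: aagatgaaaatgtgttccttttttgtcaca
Foxo1 A_51_P138044: ttcggaatgacctcatggatggagatacct
Foxo1 A_52_P453884: ttctgggagaatgttcgctttctggtctat
Itgb7: atttttcagagtgaccttcagagggcagca
Ccr7: cagccactgatacctttcctcatgttctgc
Cd69: ttttgtcaattgttctccaccaaagaataa
Gpr183: gttccagccctaaaatttctccagtacagt

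In build mm9, which the spot files use, the Klf2 probe lies at chr8:74845137-74845196 on the plus strand. The S1pr1 probe lies at chr3:115414020-115414079 on the minus strand. The Foxo1 probes lie at chr3:52150183-52150242 and chr3:52153289-52153348 on the plus strand, 3106 bases apart. Itgb7 is probed at chr15:102046450-102046509, Ccr7 at chr11:99005551-99005610, Cd69 at chr6:129217697-129217756 and Gpr183 at chr14:122351881-122351940, all on the minus strand. The exon or untranslated region of each probe was not analysed here. The share of G and C over the full probe was 35% for S1pr1, Ccr7 and Gpr183 and 55% for Itgb7, with the others between.

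Levels are given as log2 of a probe's processed signal relative to the 75th percentile of its array, so 0 marks a probe brighter than 75% of that array. All 8 probes passed the filter, which kept a probe if some group had it well above background on each of its arrays. Klf2, Itgb7, Ccr7, Gpr183 and Foxo1 A_51_P138044 were well above background on all 24 arrays. Foxo1 A_52_P453884 was so on 23, Cd69 on 20 and S1pr1 on 17. This flag is lenient here: of 1496 probes for olfactory and vomeronasal receptors, which serve smell, 68.52% were well above background on all 24 arrays, against 72.73% of all probes. The percentile of brightness among all probes ran from 7.45 for S1pr1 and 10.2 for Cd69 to 48.9 for Klf2 and 91.3 for Itgb7.

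Before the results, 3 arrays stood apart on the first principal component. Tg B cell array 23 scored 311.4, IgM-positive array 21 scored 165.3 and tg DP array 4 scored 70.4, while the other 21 lay between -87.3 and 37.1. Array 23 also had the lowest median processed signal, 125.2, and the lowest share of probes well above background, 80.64%. The 7 measured T-lineage markers averaged between -0.20 in DN3 and -1.05 in SP8 among the wt thymocyte groups, and between -1.56 and -1.96 in the B cell groups. The 8 measured B-lineage markers averaged -0.74 in IgM-negative fetal liver B cells, -1.32 in IgM-positive ones and -1.47 in tg B cells, and between -1.39 and -1.80 in the thymocyte groups. By group mean the tg B cells thus lay within the range of the thymocytes for the B list. Hepatocyte markers (Alb, Afp, Apoa1, Ttr) averaged -3.43 and -3.75 in the fetal liver groups and -3.17 to -4.29 elsewhere. The other marker lists had group means of 0.08 to 0.79 for dendritic cells, 0.21 to 0.49 for macrophages, -0.99 to -1.45 for endothelium, -1.64 to -2.27 for thymic epithelium, -1.58 to -2.70 for NK cells and -2.59 to -3.38 for erythroid cells. The 5 DP markers (Rag1, Rag2, Cd4, Cd8a, Cd8b1) averaged -1.07 in wt DP and -0.97 in tg DP, below the -0.47 in DN3 and the -0.76 in IgM-negative fetal liver B cells. They averaged -1.26 in SP4, -1.40 in SP8, -1.86 in tg B cells and -2.02 in IgM-positive cells. The 2 DN3 markers (Il2ra, Ptcra) averaged 0.27 in tg B cells, -0.12 in IgM-negative fetal liver cells, -0.15 in DN3 and between -0.18 and -0.34 elsewhere. By group mean neither list was thus highest in the cells it is named for. On the DN3 list the arrays of DN3 (-0.378 to 0.016) and of tg B cells (-0.053 to 0.589) overlapped. On the DP list the wt DP arrays (-1.27 to -0.972) lay below the DN3 arrays (-0.684 to -0.355). Whether the cells match their DP and DN3 labels was not tested. The only markers well above background on no array of a group were Hbb-b1 in DN3 and IgM-positive cells, Afp in IgM-positive and tg B cells, and Klrd1 in IgM-negative fetal liver cells. The part of other cells in the results below was not tested.

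None of the 8 probes passed the threshold (limma, Benjamini-Hochberg adjusted p under 0.05) in any of the 11 comparisons made. The spread between arrays of a group was wide for most of them. The within-group SD was 1.66 for S1pr1, 1.58 and 1.46 for the Foxo1 probes and 1.36 for Cd69, against a median of 0.57 over all probes. Among probes of like brightness (within 0.25 log2) the SD of Foxo1 A_51_P138044 was at the 96.7 percentile, that of Foxo1 A_52_P453884 at 90.7, Klf2 at 82.8 and S1pr1 at 80.1. Ccr7 was the tightest for its brightness, with an SD of 0.42 at the 12.9 percentile. For 3 arrays against 3, the 95% interval of a difference reached 0.60 to either side for Itgb7 (1.51-fold) and 0.73 for Ccr7 (1.66-fold). It reached 1.24 for Gpr183 (2.36-fold), 1.46 for Klf2 (2.76-fold), 2.21 for Cd69 (4.64-fold) and 2.71 for S1pr1 (6.52-fold). Smaller changes of these genes could not be told from 0 in this design. These intervals are not adjusted over all probes, so larger changes could also miss the threshold.

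**Figure D1:**
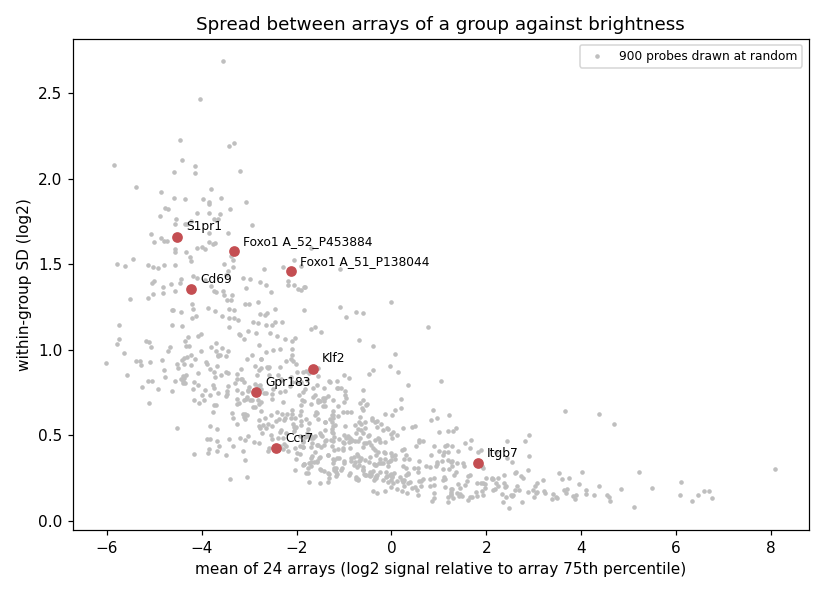
Within-group SD (log2) against the mean of 24 arrays for the 8 probes (red) and 900 probes drawn at random (grey). Dim probes spread more, and both Foxo1 probes lie near the top for their brightness, with an SD of 1.46 and 1.58.

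Klf2, the factor that turns on S1pr1, had its highest group mean in SP4. The SP4 arrays read -0.05, -0.65 and -1.42 and the SP8 arrays -1.47, -1.23 and -1.32. The DP arrays read -2.33, -2.22 and -1.37 and the DN3 arrays -1.68, -1.75 and -2.37. All 6 single-positive arrays lay above all 3 DN3 arrays, and 1 DP array reached into the single-positive range. Klf2 was the only one of the 8 probes whose single-positive and DN3 arrays did not overlap, where 0.813% of all probes were higher without overlap. The difference, 0.91 ± 0.60 (SE), did not pass the test (adjusted p = 0.9999, 95% interval -0.36 to 2.18). Within slide 3, which held 5 single-positive and 2 DN3 arrays, it was 0.96.

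Against DP, Klf2 was 1.27 ± 0.70 higher in SP4 (95% interval -0.19 to 2.73, adjusted p = 0.827) and 0.64 ± 0.70 higher in SP8 (-0.83 to 2.10, adjusted p = 0.9999). Over both single-positive groups it was 0.95 ± 0.60 higher (adjusted p = 0.9999). These differences kept their direction in all 35 alternatives run. The wt DP arrays share no slide with any SP4 or SP8 array, so for these comparisons slide and stage could be separated only through other groups, in a fit with slide as a block.

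S1pr1, the egress receptor itself, was brightest in SP4 but differed widely between arrays of that group. The SP4 arrays read -1.70, -4.46 and -1.35, and the SP8 arrays read -2.37, -5.01 and -7.40, of which the last 2 were not well above background. The DP arrays read -7.02 (not well above background), -3.10 and -5.00, and the DN3 arrays -4.24, -4.88 and -3.96. Arrays 10 and 12 of SP4 were higher than every other array in the series, and the remaining SP4 array, number 11, lay among the DN3 values. Array 11 was also the only SP4 array on slide 1, in a separate scan session. Without array 11 the difference of SP4 from DP was 3.52, and over all alternatives its adjusted p ran from 0.559 to 1.

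S1pr1 was 2.54 ± 1.29 higher in SP4 than in DP (95% interval -0.17 to 5.24, adjusted p = 0.801). These groups share no slide, and with slide as a block this difference was 1.89. S1pr1 was 2.42 ± 1.29 higher in SP4 than in SP8 (-0.28 to 5.13, adjusted p = 0.975). That difference was 1.11 with normexp, 3.70 without SP8 array 13 and 1.19 without SP8 array 15. Within slide 3 the difference of SP4 from SP8 was 3.40, over 2 and 3 arrays. Between SP8 and DP it was 0.12 ± 1.29 (-2.59 to 2.82, adjusted p = 0.9999), a value that turned to -1.06 with slide as a block. With the normexp background correction, which raises the floor of dim spots, the SP4 difference from DP was 1.34, and without DP array 3A it was 1.55.

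**Figure D2:**
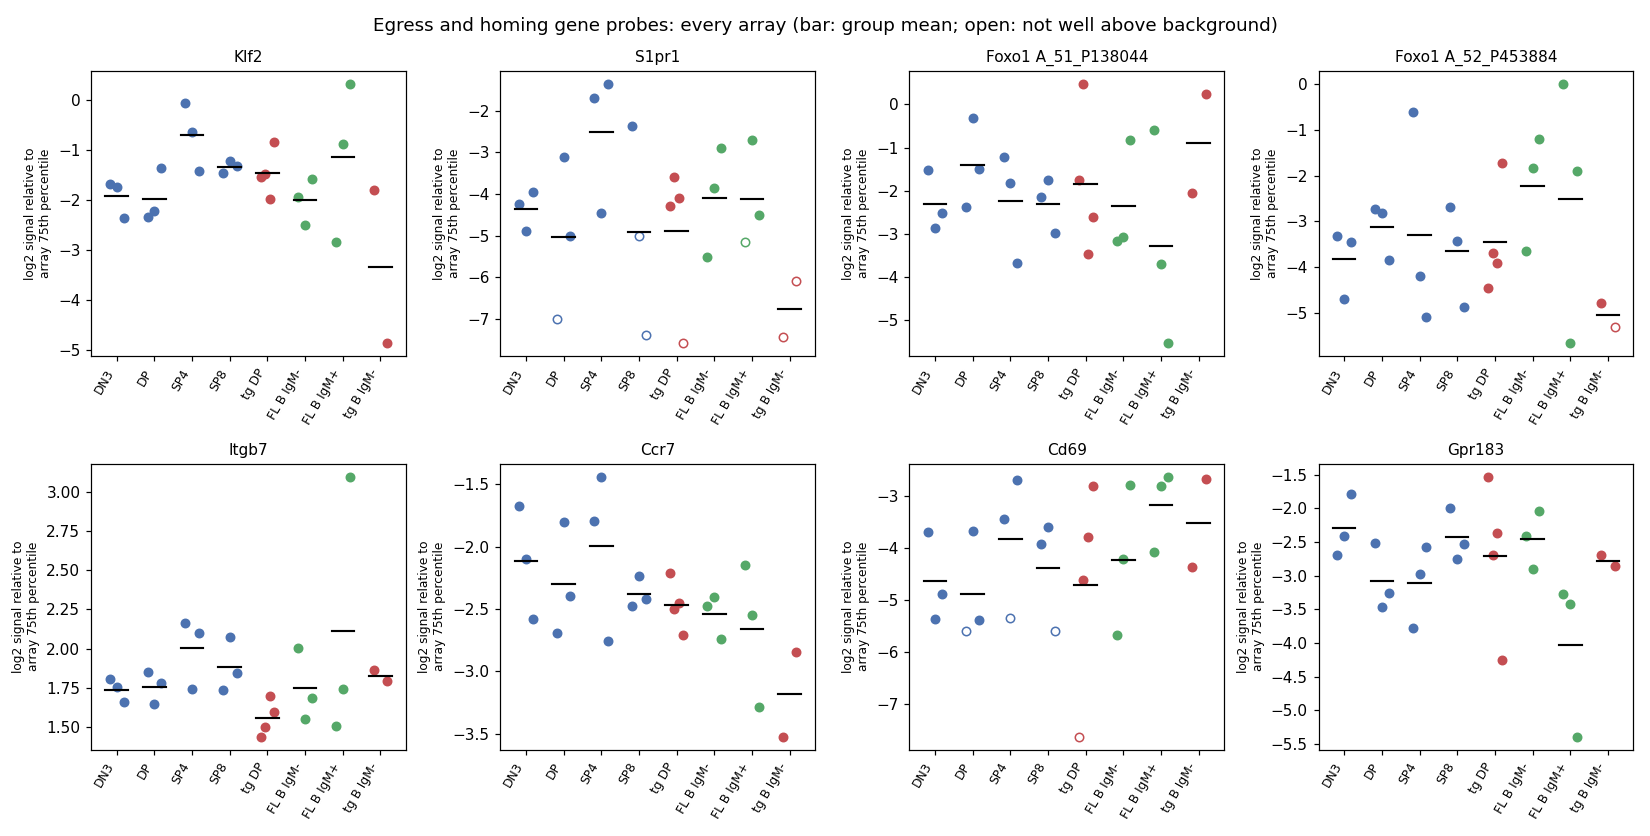
Log2 signal relative to the array's 75th percentile of the 8 probes on each of the 24 arrays, by group, with wt thymocytes in blue, fetal liver (FL) B cells in green and tg groups in red. Bars are group means and open circles are arrays where the probe was not well above background; SP4 holds the highest S1pr1 arrays, at -1.35 and -1.70, and its remaining array lies at -4.46.

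Foxo1 gave different pictures on its 2 probes. On A_51_P138044 the DP arrays read -2.38, -0.32 and -1.50, the DN3 arrays -1.52, -2.85 and -2.51, the SP4 arrays -1.21, -1.83 and -3.67 and the SP8 arrays -2.15, -1.76 and -2.97. On A_52_P453884 the DP arrays read -2.74, -2.82 and -3.84, the DN3 arrays -3.32, -4.69 and -3.46, the SP4 arrays -0.61, -4.19 and -5.08 and the SP8 arrays -2.68, -3.42 and -4.87. The 4 thymocyte groups overlapped on both probes, and SP4 arrays held both the highest and the lowest thymocyte value of the second. The difference of single-positive cells from DP was -0.86 ± 0.98 on the first probe (95% interval -2.93 to 1.20) and -0.34 ± 1.06 on the second (-2.57 to 1.88), both with an adjusted p of 0.9999. With slide as a block these were -0.07 and 0.33.

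Between tg and IgM-negative fetal liver B cells the 2 Foxo1 probes went opposite ways. On A_51_P138044 the tg B arrays read -2.04 and 0.24, the IgM-negative fetal liver arrays -3.16, -3.06 and -0.83 and the IgM-positive arrays -0.60, -3.69 and -5.53. On A_52_P453884 the tg B arrays read -4.78 and -5.30, the last not well above background, the IgM-negative arrays -3.64, -1.82 and -1.20 and the IgM-positive arrays 0.01, -5.66 and -1.90. Of the 8 groups, tg B cells were thus the highest on one probe and the lowest on the other. Tg B cells differed from IgM-negative fetal liver B cells by 1.45 ± 1.27 on the first (95% interval -1.21 to 4.11, adjusted p = 0.568) and by -2.82 ± 1.37 on the second (-5.69 to 0.05, adjusted p = 0.310). Neither passed the test, and without tg B array 23 the first was 0.31. Between IgM-positive and IgM-negative fetal liver cells the probes had the same sign. Those differences were -0.92 ± 1.13 on the first probe and -0.30 ± 1.22 on the second, and neither passed the test. Over the 24 arrays the probes had a Pearson r of 0.149 and a Spearman rho of 0.236, given as a description of arrays that share groups. Without the 3 arrays that stood apart r was 0.494.

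Between wt thymocytes and fetal liver B cells the probes also had opposite signs, 0.76 ± 0.69 and -1.11 ± 0.75 (adjusted p = 0.721 and 0.599). The only slide with both kinds of cells is slide 1, with 1 array of each. With slide as a block the values became -2.12 and -5.42. Within slide 1 they were -1.22 and -4.20, so in both of these settings the 2 probes had the same sign.

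**Figure D3:**
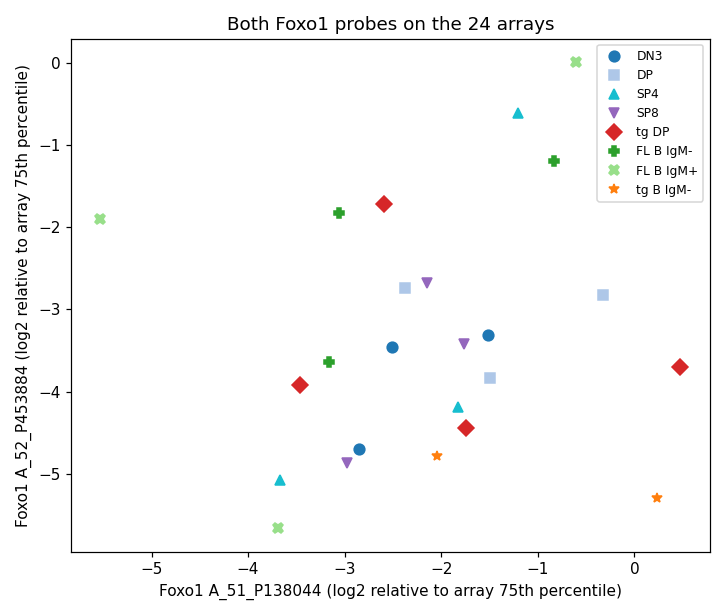
Signal of Foxo1 probe A_52_P453884 against probe A_51_P138044, both as log2 relative to the array's 75th percentile, for the 24 arrays coloured by group. The arrays form a loose cloud (Pearson r of 0.149), with tg B array 23 at 0.24 on one probe and -5.30 on the other.

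Ccr7, the medulla and lymph node receptor, varied little. Group means ran from -2.00 ± 0.68 (SD, n = 3) in SP4 to -3.18 ± 0.48 (SD, n = 2) in tg B cells, and every group overlapped with its neighbour in that order. The SP4 arrays read -1.79, -1.44 and -2.75 and the DP arrays -2.69, -1.81 and -2.39. The difference of single-positive cells from DP was 0.11 ± 0.30 (95% interval -0.52 to 0.74, adjusted p = 0.9999), an interval that ends at 0.74. With slide as a block it was 0.56. Ccr7 was 0.40 ± 0.21 higher in wt thymocytes than in fetal liver B cells (-0.04 to 0.85, adjusted p = 0.473), and 0.25 without IgM-positive array 21.

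Itgb7, the gut-homing integrin chain, had a within-group SD of 0.34 on the log2 scale, against a median of 0.25 among probes of like brightness (percentile 74.9). Of the 24 arrays, 23 lay between 1.44 and 2.16, and IgM-positive array 21 alone stood at 3.1. Single-positive cells differed from DP by 0.19 ± 0.25 (95% interval -0.33 to 0.70, adjusted p = 0.9999). IgM-positive cells differed from IgM-negative ones by 0.37 ± 0.28 (-0.23 to 0.96, adjusted p = 0.804), which turned to -0.12 without array 21. That array is one of the 3 that stood apart.

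Cd69, which holds S1pr1 back from the surface, was dim. Its DP arrays read -5.60 (not well above background), -3.69 and -5.40, its SP4 arrays -3.44, -5.35 (not well above background) and -2.70, and its SP8 arrays -3.94, -3.61 and -5.61 (not well above background). The groups overlapped throughout. Single-positive cells differed from DP by 0.79 ± 0.91 (95% interval -1.13 to 2.70, adjusted p = 0.9999), and by 2.67 with slide as a block. The highest group mean was that of IgM-positive B cells, -3.18 ± 0.79 (SD, n = 3), which differed from IgM-negative ones by 1.06 ± 1.05 (-1.16 to 3.27, adjusted p = 0.859). That value was 0.34 without IgM-negative array 16.

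Gpr183, the oxysterol receptor, gave the only unadjusted p under 0.05 among all 88 pairs of probe and comparison. The IgM-positive arrays read -3.28, -3.42 and -5.39 and the IgM-negative arrays -2.42, -2.91 and -2.04. All 3 IgM-positive arrays lay below all 3 IgM-negative ones. The difference was -1.58 ± 0.59 (95% interval -2.82 to -0.34), which did not pass limma's test after adjustment over all probes (adjusted p = 0.586). In that comparison 12.1% of all probes were lower without overlap and 7.41% had an unadjusted p under 0.05, so 1 of 8 members is near the background. Without array 21 the difference was -0.90, within slide 4 it was -1.96, and with normexp it was -0.76. Between the stages, DP differed from DN3 by -0.78 ± 0.59 (-2.02 to 0.46, adjusted p = 1), and by -0.21 with slide as a block.

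The DP thymocytes of the Foxn1-deficient tg thymus showed no called difference from wt DP in any member. Klf2 read -1.54, -1.47, -1.99 and -0.85 on the tg DP arrays and was 0.51 ± 0.65 higher than in wt DP (95% interval -0.86 to 1.88). Itgb7 read 1.44, 1.5, 1.70 and 1.60 and differed by -0.20 ± 0.27 (-0.76 to 0.36). Both had an adjusted p of 1, and all 8 probes overlapped between the groups. The interval for Itgb7 ends at a fall of 0.76. For the 4 dim or variable probes (S1pr1, Cd69 and both Foxo1 probes) the interval reached at least 1.7956 on either side. Within slide 2, over 3 tg and 3 wt arrays, the values were 0.54 for Klf2 and -0.16 for Itgb7.

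In the IgM-negative B cells of the tg thymus, 3 of the 8 probes lay below all 3 fetal liver arrays without overlap: S1pr1, Foxo1 A_52_P453884 and Ccr7. Over all probes 25.4% did so, which is the share to read this count against. S1pr1 read -7.44 and -6.10 on the tg arrays, not well above background on either, and -5.52, -3.85 and -2.89 in fetal liver. The fit gave -2.68 ± 1.44 (95% interval -5.70 to 0.35, adjusted p = 0.352), which did not pass the test, and -0.46 with normexp. For a cautious value, tg readings were raised to the lowest signal well above background on their array. The tg B cell mean under the main scaling was then 2.3-fold lower. This is no strict bound, since the flag has no single cutoff. It leaves the spread of the arrays out of account, and the normexp value does not reach it. Ccr7 read -3.52 and -2.84 against -2.48, -2.41 and -2.74, a difference of -0.64 ± 0.39 (95% interval -1.46 to 0.17, adjusted p = 0.401), which was -0.13 under quantile scaling.

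Klf2 in these B cells depended on which tg array was used. It read -1.80 on array 22 and -4.87 on array 23, against -1.94, -2.50 and -1.59 in IgM-negative fetal liver cells. The difference was -1.32 ± 0.78 (95% interval -2.96 to 0.31, adjusted p = 0.390). Without array 22 it was -2.86 and passed the test (adjusted p = 0.0246), with the lone array 23 assumed to vary like the other groups. In that fit 15.1% of all probes passed the test, and of the difference between the tg effects 7.91% did. Klf2, 1 of 8 members, is to be read against those shares. Without array 23 it was 0.21. The difference between the tg effects in DP and in B cells was 1.84 ± 1.01 for Klf2 (adjusted p = 0.596), 3.37 without array 22 (adjusted p = 0.0410) and 0.30 without array 23. Over all alternatives the adjusted p ran from 0.0246 to 0.958 for the B cell difference and from 0.0410 to 0.981 for the difference of effects. In IgM-positive cells Klf2 read -2.83, -0.89 and 0.32, a difference from IgM-negative cells of 0.88 ± 0.70 (adjusted p = 0.812), which was 0.15 without array 21.

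**Figure D4:**
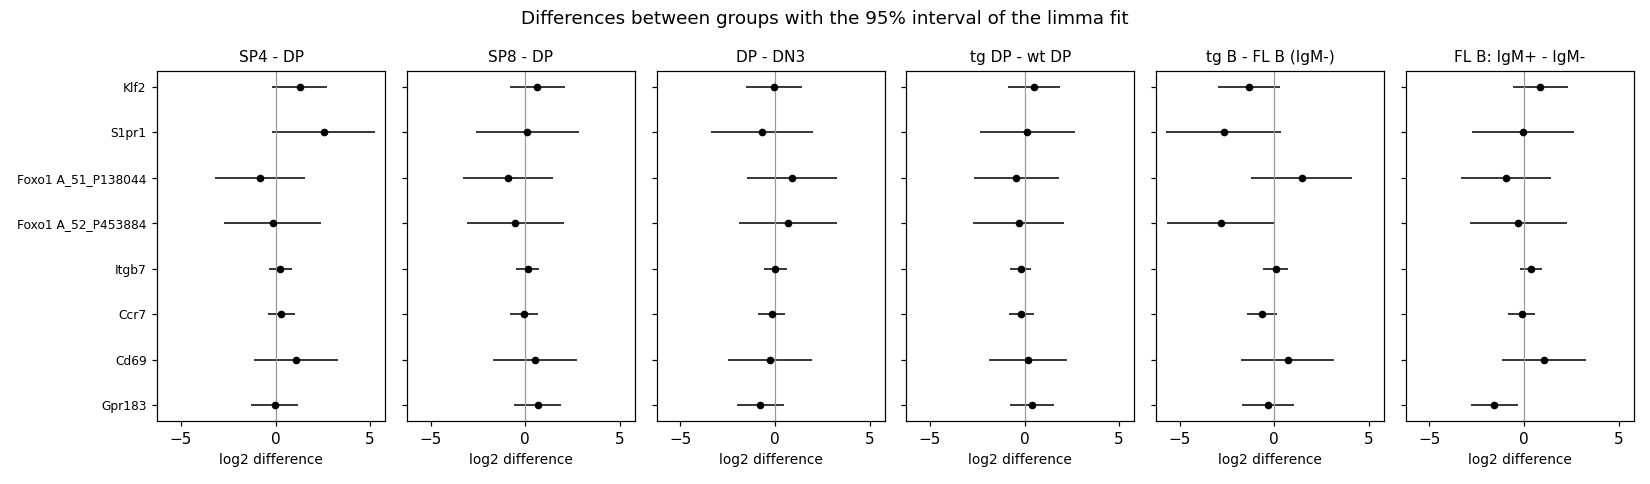
Difference between groups (log2) with its 95% interval from limma for the 8 probes in 6 comparisons. Only the interval of Gpr183 in IgM-positive against IgM-negative fetal liver (FL) B cells leaves out 0, from -2.82 to -0.34, and no probe passed the adjusted threshold.

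The counts over all probes set the scale of these results. By adjusted p under 0.05, limma called 0% of probes for SP4 against DP, SP8 against DP, single-positive against DN3, DP against DN3, SP4 against SP8, tg against wt DP and IgM-positive against IgM-negative cells. It called 0.00189% for single-positive against DP, 0.034% for tg against fetal liver B cells, 0.0491% for wt thymocytes against fetal liver B cells and 0.00566% for the difference of tg effects. An unadjusted p under 0.05 was found for 6.42% of probes in SP4 and 2.29% in SP8 against DP, 3.92% in single-positive cells against DP and 2.95% against DN3. It was found for 2.05% in DP against DN3, 5.18% in SP4 against SP8 and 3.21% in tg against wt DP. The shares were 16.5% in tg against fetal liver B cells, 12% in thymocytes against B cells and 9.23% for the difference of tg effects. Of the members, 0 of 8 had such a p in each of these 10 comparisons. In SP4 against DP, 5 of the 8 had a higher mean, with a median difference of 0.27 against -0.08 over all probes. In tg against fetal liver B cells 5 of 8 were lower, with a median of -0.48 against -0.27 over all probes.

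Other genes of the same pathways, taken from fixed lists with the brightest probe of each gene, also gave no call in any of the 11 comparisons. Of 19 migration machinery genes, 14 had a higher mean in SP8 than in DP, with a median of 0.33 against -0.03 over all probes. In single-positive cells against DN3, 11 of 19 were higher, with a median of 0.01 against -0.02. No SP4 or SP8 array shares a slide with a wt DP array. In SP4 against DP, 15 of 19 had a higher mean, with a median difference of 0.40 against -0.08 over all probes. Gnai2, the inhibitory G protein subunit through which these receptors signal, had a difference of 2.20 ± 0.50 (adjusted p = 0.273). Coro1a, an actin regulator needed for thymocyte egress, had 1.01 ± 0.31 (adjusted p = 0.573). Of 11 Foxo and Klf family members and targets, 8 had a higher mean, with a median difference of 0.125. Among them Klf13, another Klf factor, differed by 1.04 ± 0.36 (adjusted p = 0.617) and Il7r, the interleukin-7 receptor chain, by 2.72 ± 1.09 (adjusted p = 0.704).

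Of 11 genes of the sphingosine 1-phosphate axis, 3 had a higher mean in SP4 than in DP and 8 a lower one. The median difference was -0.30, against -0.08 over all probes. In SP8 against DP, 6 were higher and 5 lower, with a median of 0.17 against -0.03. Sphk2, a kinase that makes the lipid, differed by -2.97 ± 1.15 (adjusted p = 0.695) and S1pr2, another of its receptors, by -0.81 ± 0.68 (adjusted p = 0.927). Of 10 integrins and selectin ligands 7 were higher, with a median of 0.16. Itga4, the alpha chain that pairs with Itgb7, differed by -0.85 ± 0.35 (adjusted p = 0.729). Selplg, a selectin ligand, differed by 0.39 ± 0.29 (adjusted p = 0.907). Of 8 other homing receptors 1 was higher, with a median of -0.33. Ccr9, the receptor for a thymic and gut chemokine, differed by -0.46 ± 0.41 (adjusted p = 0.936). Of 6 tested ligands and ligand enzymes 2 were higher, with a median of -0.02. Madcam1, the gut ligand of the integrin that holds Itgb7, differed by -0.45 ± 0.18 (adjusted p = 0.702). In SP8 against DP, 9 of the 10 integrins and selectin ligands were higher, 3 of the 8 receptors and 4 of the 6 ligands.

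The probes of other genes whose pattern over the 24 arrays was most like each member were found by Pearson correlation among 29184 probes. They were Ikzf3 (r = 0.855) and Duox2 (0.845) for Klf2, Usp36 (0.761) and Fam65b (0.751) for S1pr1, and Lamp3 (0.756) and Ndrg2 (0.738) for the brighter Foxo1 probe. For Itgb7 Xdh (0.829) is given, for Ccr7 they were Vmn1r9 (0.753) and Vmn1r41 (0.741), for Cd69 Ostf1 (0.756) and 9430078K24Rik (0.696), and for Gpr183 Kndc1 (0.801) and Olfr99 (0.781). These are descriptions of arrays that share amplification and scaling. Without the 3 arrays that stood apart, Ikzf3 remained first for Klf2 (0.759) and Fam65b second for S1pr1 (0.805), and none of the probes named for the other 5 remained among the first 2. The members were left out of this ranking, so none could appear among another's leading probes. Over the 24 arrays Klf2 and S1pr1 correlated at 0.249.

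Promoter windows of 300 bases were matched by symbol for 4 of the 7 genes in RefSeq's table (GRCm38.p6). The motif CACCC, the core that Klf factors bind, was counted on both strands 4 times for Itgb7, once for Klf2 and 0 times for Foxo1 and Gpr183. At least 1 match was held by 57.65% of 32544 promoters. GTAAACA, the forkhead core, had 0 matches in all 4 windows and was held by 3.657% of promoters. S1pr1, Ccr7 and Cd69 were not matched.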

How the data were processed

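The deposited spot files hold intensities from Feature Extraction 10.7.3.1, per the file headers: a background-subtracted processed signal with flags. The authors' deposited matrix of log2 values served as an alternative. Its columns each had a median of 7.93 and kept the rank order of the processed signals. Whether their whole distributions are equal between arrays was not tested. No source used here names the program. Of 62976 spots per array, 3671 controls were dropped; 248 values with a non-uniformity flag became missing, 0 were saturated, and spots sharing a probe were averaged. The filter kept 52991 of 55681 probes, those with at least 1 group in which each array was well above background. Differences were fitted with limma 3.58.1 in R 4.3.3 (lmFit, eBayes) on group means of all 24 arrays, and p-values were adjusted over all probes of a comparison. The procedure was tested on simulated data. Array number limits the precision.

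All probes of the 7 genes were named; other genes were named as the 2 most like each member, and as the 2 with the strongest statistic of each list. One gene that this rule selects is not reported here. The members and lists were chosen with earlier results of these data known. Alternatives were the background correction, scaling, filter, slide as a block, fewer groups, array weights, averaged arrays of a shared title number and each array left out; leaving out arrays 4, 21 and 23 together was chosen after seeing the data.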

Additional observations from a re-analysis of the deposited data

How the results depend on the processing

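Of 88 pairs of member probe and comparison, run under all alternatives that gave a value (3047 values), 2905 kept direction and side of the threshold, 140 changed sign without passing it and 2 newly passed, both for Klf2. Keeping only probes well above background on all 24 arrays gave no value for S1pr1, Cd69 and Foxo1 A_52_P453884. The number of member probes called was 0 under every alternative in 9 comparisons; for tg against fetal liver B cells and for the difference of tg effects it ranged from 0 to 1 when single arrays were left out. Without tg B array 22 the Klf2 values there were -2.86 and 3.37; without array 23, 0.21 and 0.30.

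Changes of sign among the differences reported: S1pr1 in SP8 against DP was -1.06 with slide as a block, -0.37 with arrays of a shared title number averaged, and ranged from -1.16 to 1.35 without single arrays. Foxo1 A_52_P453884 in single-positive cells against DP was 0.33 with the slide block and ranged from -1.01 to 0.10 without single arrays. Ccr7 there was -0.012 with averaged arrays and ranged from -0.088 to 0.36. Foxo1 A_51_P138044 in thymocytes against B cells was -2.12 with the slide block. With arrays 4, 21 and 23 left out, an alternative chosen after seeing the data, Klf2 in tg against fetal liver B cells was 0.21 and Itgb7 in IgM-positive against IgM-negative cells was -0.12. Leave-one-out ranges were -2.86 to 0.21 for that Klf2 difference and -0.12 to 0.67 for that Itgb7 difference. The cause was not tested.

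Counts over all probes moved more: SP4 against DP had 0 called and up to 51 with arrays 4, 21 and 23 left out; single-positive against DP 1 and up to 38 with array weights; tg against fetal liver B cells 18, 0 to 97 under other settings, and 7981 without tg B array 22; thymocytes against B cells 26, 4 to 142, and 0 to 193 without single arrays; the difference of tg effects 3 and 4193 without array 22; tg against wt DP 0 and up to 8; SP4 against SP8 0 and up to 4; IgM-positive against IgM-negative 0 and up to 16; single-positive against DN3 0 and up to 2. No paired analysis was possible because the groups share no replicate numbers. Among the members, low signal limits S1pr1 and Cd69 most: they were well above background on 17 and 20 of 24 arrays.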
